A study of Mus musculus with 9 samples.

Results

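The genes of the proteasome were followed in sorted mouse T cells after hematopoietic stem cell transplantation. They were taken as the protein-coding genes whose symbol is Psma, Psmb, Psmc, Psmd, Psme, Psmf or Psmg followed by a number, which gave 48 of the 29229 genes in the count table. RNA was sequenced in 9 libraries of live CD3+ CD45.2+ spleen cells, with 3 libraries in each of 3 groups. The allogeneic group came from CByJ.SJL(B6)-Ptprca/J recipients (H-2d, CD45.1), which received 8 Gy of radiation and 1000000 splenic T cells. The syngeneic group came from B6.SJL-Ptprca Pepcb/BoyJ recipients (H-2b, CD45.1), which received 9.5 Gy and 8500000 splenic T cells. Recipients of both transplants were also given 5000000 T-cell-depleted marrow cells, drank water of pH 3.0, and were killed on day 7. Marrow and T cells were from C57BL/6 donors, and CD45.2 is the leukocyte allele of these donors, so that cells grown from the donor marrow carry it too. The naive group came from healthy C57BL/6 mice without a transplant. Mice were female and 8 to 12 weeks old, and cells of 2 to 4 recipients were pooled for each library of the transplant groups. Recipient strain, radiation dose and T-cell dose changed together between the allogeneic and the syngeneic group and cannot be told apart. The strain tag of the labels names the syngeneic recipient strain for all 9 libraries, against the transplant protocol and the naive titles, and was not used.

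The proteasome degrades proteins marked with ubiquitin. Its barrel, the 20S core, has outer alpha rings and inner beta rings, and 3 of the beta subunits cut peptide bonds: beta1 (Psmb6), beta2 (Psmb7) and beta5 (Psmb5). In cells of the immune system, and in other cells exposed to interferon gamma, newly assembled cores can carry beta1i (Psmb9), beta2i (Psmb10) and beta5i (Psmb8) in their place. This immunoproteasome and the PA28 cap of Psme1 and Psme2 are known for producing peptides for presentation on class I major histocompatibility molecules. The 19S cap, with a ring of ATPases and a lid, binds and unfolds ubiquitin-marked substrates and feeds them into the core.

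The libraries held 103953932 to 176678189 counts. Gm26917 and Gm42418, which collect reads of a ribosomal RNA locus, took 7.87 to 17.2% of the counts in allogeneic libraries, 19.4 to 22.4% in syngeneic libraries and 15.8 to 18.8% in naive libraries. The summed level of 8 T-cell markers (Cd3d, Cd3e, Cd3g, Cd2, Cd5, Trac, Lck and Zap70) was 3694 to 3934 CPM (counts scaled to a common library total) in allogeneic libraries, 2554 to 3095 CPM in syngeneic libraries and 3787 to 4078 CPM in naive libraries. The summed level of 9 erythroid markers was 13.3 to 36.8 CPM in allogeneic libraries, 2111 to 5309 CPM in syngeneic libraries and 1.64 to 1.88 CPM in naive libraries. Summed levels in allogeneic, syngeneic and naive libraries, in this order, were 35.6 to 46.2, 81.0 to 107.1 and 15.6 to 20.2 CPM for B-cell markers, and 48.01 to 84.2, 46.8 to 173.8 and 3.03 to 4.08 CPM for macrophage and monocyte markers. In the same order they were 146.3 to 227.5, 14.6 to 33.7 and 3.33 to 5.05 CPM for dendritic-cell markers, and 410.4 to 761, 306.4 to 1023 and 1.29 to 4.97 CPM for neutrophil markers. The allogeneic dendritic-cell sum was carried by Itgax, at a mean of 197 CPM, while the 5 other markers of that list were called lower in allogeneic than in syngeneic T cells. NK-cell markers, among them Gzma and Eomes that T cells also express, summed to 1106 to 1401 CPM in allogeneic libraries, 180.0 to 208.4 CPM in syngeneic libraries and 69.8 to 75.9 CPM in naive libraries. Platelet markers summed to at most 7.69 CPM in any library. The 8 proliferation genes summed to 2539 to 2908 CPM in allogeneic libraries, 2210 to 3488 CPM in syngeneic libraries and 196.7 to 223.1 CPM in naive libraries. In these bulk samples, fewer cells of a type and less RNA per cell cannot be told apart, and the part of the other cell types in the results was not tested.

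Proteasome RNA was highest in allogeneic T cells, lower in syngeneic T cells and lowest in naive T cells. The 48 genes summed to 5325, 4740 and 4839 CPM in allogeneic libraries, to 3937, 3768 and 4063 CPM in syngeneic libraries, and to 3087, 3074 and 3373 CPM in naive libraries. No library overlapped another group. Means were 4968 ± 313, 3922 ± 148 and 3178 ± 169 CPM (SD, n = 3 each) in the allogeneic, syngeneic and naive group. The 5 interferon-inducible genes Psmb8, Psmb9, Psmb10, Psme1 and Psme2 held 21.6, 22.2 and 22.2% of this sum in allogeneic libraries, 24.5, 19.7 and 21.7% in syngeneic libraries, and 24.2, 24.7 and 24.7% in naive libraries. Every allogeneic library had a smaller share than every naive library, while the syngeneic libraries spread across both. Single genes followed the same order in 24 of 48 cases, with every allogeneic library above every syngeneic library and every syngeneic library above every naive library, against 7.61% of the 19609 genes that passed the filter on low counts. In 33 genes every allogeneic library lay above the 6 others, against 19.8% of all genes tested.

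**Figure D1:**
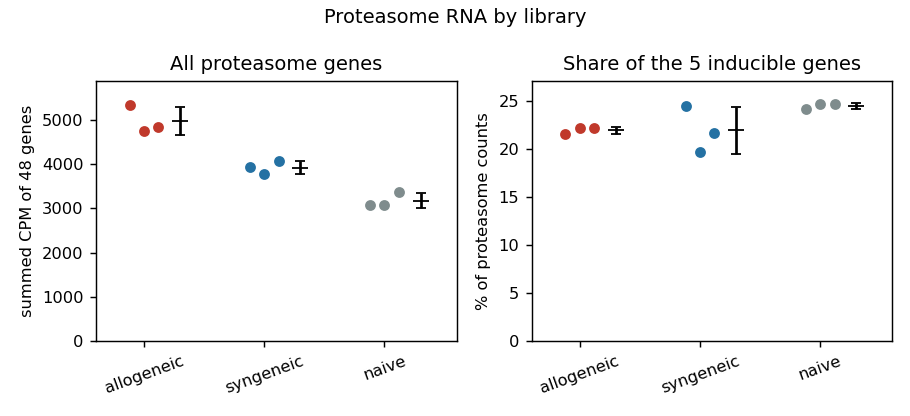
Summed CPM of the 48 proteasome genes (left) and the percent of their counts that belong to the 5 interferon-inducible genes (right), by group. Each dot is a library and the bar beside it is the mean ± SD of 3 libraries: the 3 allogeneic sums, 4740 to 5325 CPM, lie above the syngeneic ones, 3768 to 4063 CPM, and the naive ones, 3074 to 3373 CPM.

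In allogeneic against syngeneic T cells, 27 of the 48 genes were higher, 1 was lower (Psme3) and 20 did not pass the test, with a median log2 fold change of 0.35. Genes were called at an adjusted p under 0.05 in edgeR's quasi-likelihood test over 19609 genes, of which 24.3% were called higher and 20.7% lower, with a median of -0.02. All 48 proteasome genes passed the filter on low counts. Of the 31 constitutive subunits of the 26S particle (the core with its 19S cap), 23 were higher and 0 lower, with log2 fold changes of 0.09 to 0.83 and a median of 0.41. For that 0, the unadjusted test at 0.05, DESeq2 and limma-voom also gave 0. The groups did not overlap in 34 of the 48 genes, against 52.7% of all genes tested. The largest proteasome difference, 0.83 on the log2 scale, was under 2-fold, where 7.82% of all genes were called higher and 11.6% lower by at least 2-fold. The summed T-cell markers moved in the same direction, with 5 of 8 called higher, 0 lower and a median log2 fold change of 0.50, and all 9 erythroid markers were called lower; their part in the result was not tested. Of the 28 calls, 18 were made under each of 18 alternative settings. Leaving out 1 library ended 10 calls (Psma5, Psma7, Psmb5, Psmb8, Psmc3, Psmc4, Psmc5, Psmd1, Psmd14 and Psme4), at adjusted p-values of 0.05 to 0.168 in edgeR. Leaving out allogeneic library 1 ended 8 of them and left 19 genes called higher. The fit lacking syngeneic library 2 ended 8 and left 19, and that lacking syngeneic library 3 ended 7 and left 20. Psma5, Psma7, Psmd1 and Psme4 also lost the call under other scalings, filters or 2-group fits that left out no library of the 2 groups.

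In allogeneic against naive T cells, 40 of the 48 genes were higher and 0 lower, with a median log2 fold change of 0.71. Of all genes tested, 31.8% were called higher and 25.9% lower, with a median of -0.01. For the count of 0 lower, the unadjusted edgeR test at 0.05 gave 1 gene (Psmb11), and DESeq2 and limma-voom gave 0. All 31 constitutive 26S subunits were higher, by 0.36 to 1.25 on the log2 scale with a median of 0.78. The groups did not overlap in 43 of the 48 genes, against 65.1% of all genes tested. A called rise of at least 2-fold was seen in 7 genes (Psma1, Psma8, Psmb7, Psmc1, Psmd1, Psmd8 and Psmd13), against 17.0% of all genes tested, while 0 fell by as much, against 12.7%. All 8 proliferation genes were called higher in this comparison too, with a median log2 fold change of 4.37, while 1 of 8 T-cell markers was called higher, 1 lower, and their median was -0.07. Of the 40 calls, 39 were made under each of the 18 alternatives, the exception being Psma8.

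In syngeneic against naive T cells, 26 of the 48 genes were higher and 0 lower, with a median log2 fold change of 0.34. Of all genes tested, 22.4% were called higher and 19.5% lower, with a median of 0.01. For the count of 0 lower, the unadjusted edgeR test at 0.05, DESeq2 and limma-voom all gave 0. The 31 constitutive 26S subunits had 21 higher, and 10 did not pass the test. The groups did not overlap in 33 of the 48 genes, against 56.5% of all genes tested. Psma8 was the single gene called with a rise of at least 2-fold, against 13.4% of all genes tested, and 0 fell by as much, against 4.95%. Here the T-cell markers moved the other way, with 0 higher and 6 of 8 lower and a median log2 fold change of -0.60, while all 8 proliferation genes and all 9 erythroid markers were called higher. Of the 26 calls, 17 were made under each of the 18 alternatives, and 17 genes were called higher without naive library 1 or without naive library 2. The same 9 genes lost the call in both of these fits: Psma2, Psma3, Psma5, Psma7, Psma8, Psmc2, Psmc5, Psmd9 and Psmg2. Of these, Psma7, Psmc2 and Psmg2 also lost it with no filter on low counts. The 3 comparisons share libraries, each group entering a pair of them.

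**Figure D2:**
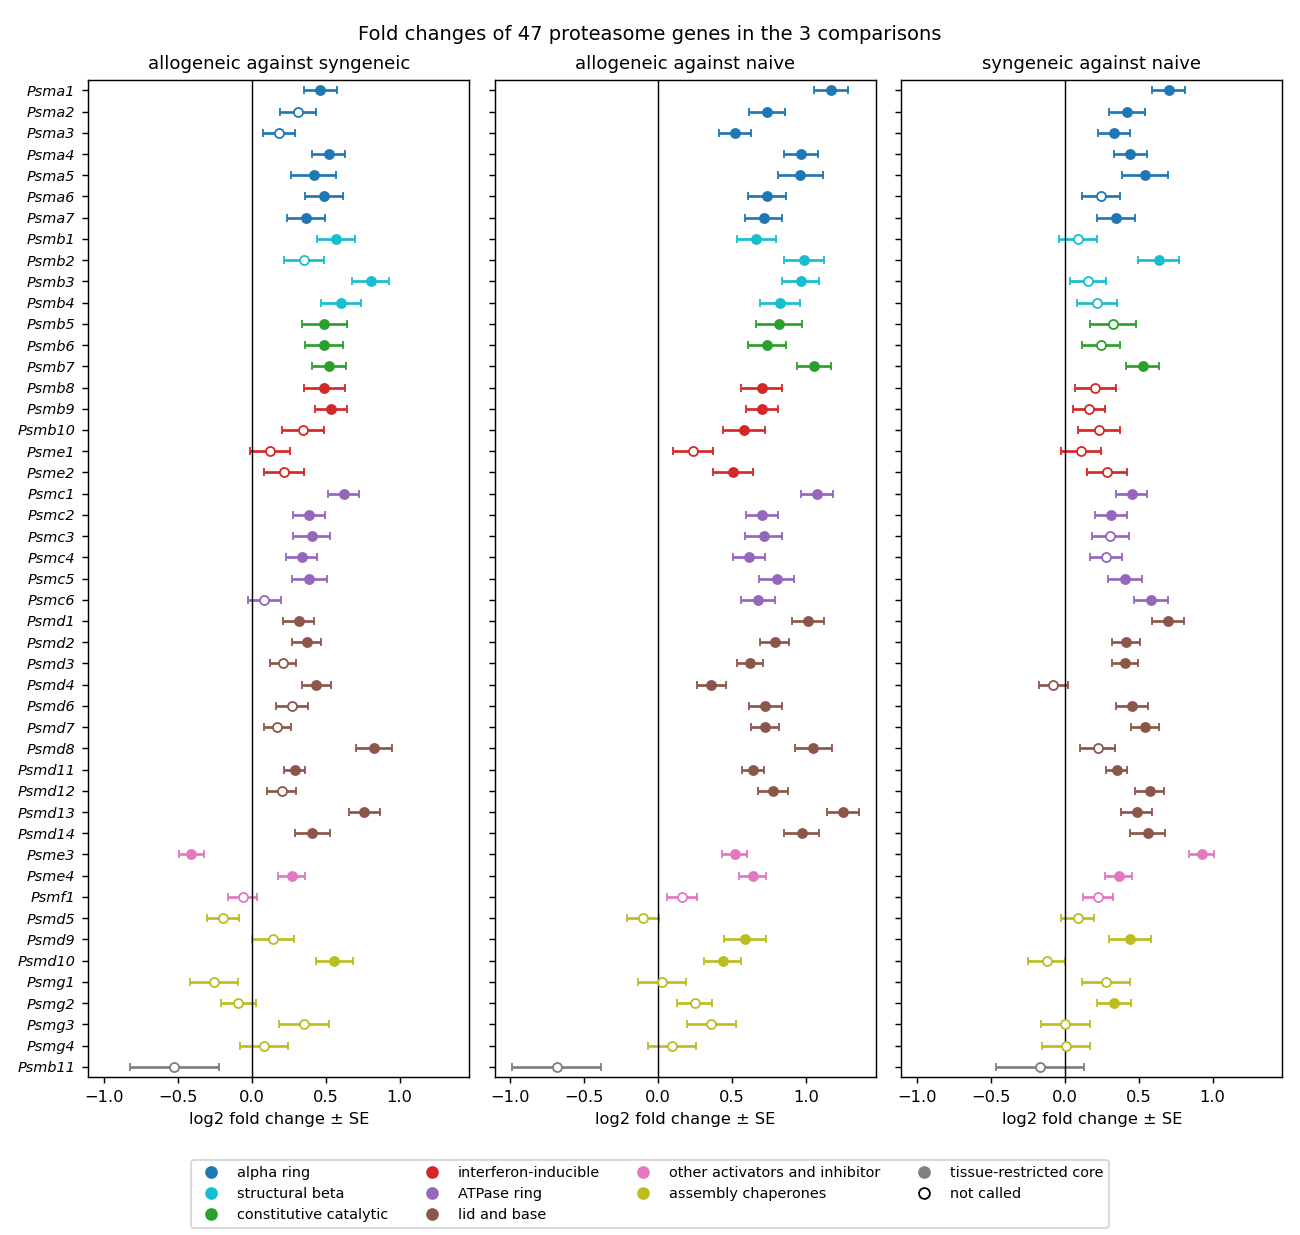
The log2 fold change of 47 proteasome genes in allogeneic against syngeneic (left), allogeneic against naive (middle) and syngeneic against naive libraries (right), with bars of 1 SE and genes coloured by role. Filled dots passed edgeR's test at an adjusted p under 0.05 and open dots did not; Psma8, with at most 28 counts in a library, is left out. All 31 constitutive 26S subunits are filled and right of 0 in the middle panel.

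The outer alpha rings close the core and anchor its caps, and 5 of their 7 genes were higher in allogeneic than in syngeneic T cells. The 7 genes summed to 706 ± 69.7 CPM in allogeneic libraries, 542 ± 13.6 CPM in syngeneic libraries and 418 ± 27.2 CPM in naive libraries (SD, n = 3 each). The largest called difference between the transplants was that of Psma4 (alpha3), at 124, 109 and 112 CPM in allogeneic libraries, 83.6, 79.4 and 80.5 CPM in syngeneic libraries and 57.3, 60.5 and 66.2 CPM in naive libraries. The 3 groups of Psma4 did not overlap, and its log2 fold change of allogeneic against syngeneic was 0.52 ± 0.11 (SE; adjusted p = 0.0030 in edgeR). The smallest called difference was that of Psma7 (alpha4), with a log2 fold change of 0.37 ± 0.13 and an adjusted p of 0.0353 in edgeR. This call was lost without allogeneic library 1 (adjusted p = 0.115 in edgeR), syngeneic library 2 (0.135) or syngeneic library 3 (0.0726). It was also lost with the 2 groups alone. Psma2 (alpha2), at 0.32 ± 0.12, and Psma3 (alpha7), at 0.18 ± 0.11, did not pass the test between the transplants, with adjusted p-values of 0.0534 and 0.187 in edgeR; Psma2 did pass without allogeneic library 2 (0.0445) or syngeneic library 1 (0.0281). All 7 genes were higher in allogeneic than in naive T cells, from 0.52 ± 0.11 for Psma3 to 1.17 ± 0.11 for Psma1 (alpha6) on the log2 scale. Psma1 had 105, 88.0 and 95.5 CPM in allogeneic libraries, 67.5, 71.4 and 73.7 CPM in syngeneic libraries and 45.5, 41.3 and 46.9 CPM in naive libraries. Of the 7, 6 were higher in syngeneic than in naive T cells, again with Psma1 at the top (0.70 ± 0.11) and Psma3 at the bottom (0.34 ± 0.11, adjusted p = 0.0278 in edgeR, at 0.112 without naive library 1). Psma6 (alpha1) did not pass the test there, at 0.24 ± 0.13 (adjusted p = 0.154), and passed without allogeneic library 1 (0.0324).

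The beta rings also hold 4 subunits without a cutting site, and 3 of their genes were higher in allogeneic than in syngeneic T cells. Psmb3 (beta3) had 104, 96.8 and 92.3 CPM in allogeneic libraries, 61.7, 50.7 and 57.2 CPM in syngeneic libraries and 52.2, 49.5 and 54.9 CPM in naive libraries. Its allogeneic libraries stood apart from the 6 others, among which the syngeneic and naive libraries overlapped. The log2 fold change of Psmb3 was 0.81 ± 0.12 against syngeneic T cells (adjusted p = 0.000334 in edgeR) and 0.96 ± 0.12 against naive T cells, and 0.16 ± 0.12 in syngeneic against naive T cells, where it did not pass the test (adjusted p = 0.342). Psmb4 (beta7) and Psmb1 (beta6) had the same pattern of calls, with 0.61 ± 0.13 and 0.57 ± 0.13 on the log2 scale in allogeneic against syngeneic T cells and 0.22 ± 0.13 and 0.09 ± 0.13 in syngeneic against naive T cells. Psmb2 (beta4) had another pattern, with 106, 85.2 and 86.1 CPM in allogeneic libraries, 75.2, 68.3 and 77.4 CPM in syngeneic libraries and 47.4, 45.7 and 52.9 CPM in naive libraries. Psmb2 was higher than in naive T cells in both transplants, by 0.99 ± 0.14 in allogeneic and 0.64 ± 0.14 in syngeneic T cells on the log2 scale. Between the transplants its 0.35 ± 0.14 did not pass the test (adjusted p = 0.0544 in edgeR), and passed without allogeneic library 2 (0.0376) or syngeneic library 1 (0.0405).

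All 3 constitutive catalytic genes were higher in allogeneic than in syngeneic T cells, and by similar amounts. Psmb5, whose beta5 subunit cuts after hydrophobic residues, had 92.6, 75.0 and 75.7 CPM in allogeneic libraries, 63.5, 51.4 and 60.8 CPM in syngeneic libraries and 46.7, 43.8 and 53.6 CPM in naive libraries. Psmb6, whose beta1 subunit cuts after acidic residues, had 107, 92.5 and 88.6 CPM in allogeneic libraries, 71.0, 63.1 and 73.9 CPM in syngeneic libraries and 58.5, 56.8 and 65.1 CPM in naive libraries. Psmb7, whose beta2 subunit cuts after basic residues, had 112, 92.5 and 99.2 CPM in allogeneic libraries, 69.0, 71.0 and 75.2 CPM in syngeneic libraries and 49.3, 49.6 and 54.3 CPM in naive libraries. In each of the 3 genes every allogeneic library lay above the 6 others, and in Psmb7 the syngeneic and naive libraries did not overlap either. The log2 fold change in allogeneic against syngeneic T cells was 0.49 ± 0.15 for Psmb5 (adjusted p = 0.0220 in edgeR), 0.49 ± 0.13 for Psmb6 (0.00964) and 0.52 ± 0.11 for Psmb7 (0.0032). The Psmb5 call was lost without allogeneic library 1 (adjusted p = 0.0837 in edgeR), syngeneic library 2 (0.0990) or syngeneic library 3 (0.0559). Against naive T cells the 3 genes were higher in allogeneic T cells by 0.82 ± 0.15, 0.74 ± 0.13 and 1.05 ± 0.11 on the log2 scale, in the order Psmb5, Psmb6 and Psmb7. Only Psmb7 passed the test in syngeneic against naive T cells, at 0.53 ± 0.11 (adjusted p = 0.0032 in edgeR), with Psmb5 at 0.33 ± 0.15 (0.11) and Psmb6 at 0.24 ± 0.13 (0.156).

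The 5 interferon-inducible genes were higher in 2 cases in allogeneic than in syngeneic T cells. Psmb8, the beta5i gene (chr17:34197721-34201454, plus strand, GRCm38), had 448, 409.6 and 410.3 CPM in allogeneic libraries, 342, 261 and 308 CPM in syngeneic libraries and 255, 264 and 294 CPM in naive libraries. Psmb9, the beta1i gene beside it (chr17:34181987-34187764, minus strand), had 148, 147 and 163 CPM in allogeneic libraries, 112, 93.0 and 113 CPM in syngeneic libraries and 94.2, 95.1 and 103 CPM in naive libraries. In both genes the allogeneic libraries lay above the 6 others, while syngeneic and naive libraries overlapped. The log2 fold change in allogeneic against syngeneic T cells was 0.49 ± 0.14 for Psmb8 (adjusted p = 0.0140 in edgeR) and 0.54 ± 0.11 for Psmb9 (0.00184). The Psmb8 call was lost without allogeneic library 1 (adjusted p = 0.05 in edgeR) or syngeneic library 2 (0.0667). Exons of other genes on the opposite strand overlap 14.7% of the exon length of Psmb8 (Gm20496) and 5.79% of that of Psmb9 (Tap1), and the sources used here do not give the strand setting of the counting.

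Psmb10, the beta2i gene (chr8:105935735-105938444, minus strand), had 145, 132 and 128 CPM in allogeneic libraries, 122, 89.0 and 109.8 CPM in syngeneic libraries and 90.4, 92.9 and 98.4 CPM in naive libraries. Its allogeneic libraries lay above the 6 others in CPM. With the scaling used in the test, its allogeneic and syngeneic libraries overlapped. The log2 fold change of Psmb10 in allogeneic against syngeneic T cells, 0.35 ± 0.14, did not pass the test (adjusted p = 0.0673 in edgeR), and passed without syngeneic library 1 (0.51, adjusted p = 0.00773). Psme1, the alpha subunit of PA28, had 266, 239 and 232 CPM in allogeneic libraries, 254, 198 and 232 CPM in syngeneic libraries and 212, 212 and 229.8 CPM in naive libraries. Psme2, the beta subunit, had 142, 126 and 139 CPM in allogeneic libraries, 133, 100.3 and 119 CPM in syngeneic libraries and 94.7, 96.4 and 107 CPM in naive libraries. Allogeneic and syngeneic libraries overlapped in both PA28 genes, with log2 fold changes of 0.13 ± 0.13 for Psme1 (adjusted p = 0.467 in edgeR) and 0.22 ± 0.13 for Psme2 (0.204). Psme2 passed without syngeneic library 1 (0.0284). This library had the highest syngeneic level of Psmb8, Psmb10, Psme1 and Psme2, and syngeneic library 2 had the lowest syngeneic level of all 5 inducible genes. Psme2b, a gene of similar sequence outside the 48, held 2717 to 4739 counts in allogeneic libraries, 2309 to 3483 in syngeneic libraries and 3196 to 3869 in naive libraries, and reads may be shared between it and Psme2.

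Against naive T cells, 4 of the 5 inducible genes were higher in allogeneic T cells. The log2 fold changes were 0.70 ± 0.14 for Psmb8, 0.70 ± 0.11 for Psmb9, 0.58 ± 0.14 for Psmb10 and 0.50 ± 0.13 for Psme2, with adjusted p-values of 0.00119, 0.000173, 0.00452 and 0.00743 in edgeR. Psme1 stood at 0.24 ± 0.13 and did not pass the test (adjusted p = 0.155 in edgeR). Its allogeneic and naive libraries did not overlap in CPM, as in 65.1% of all genes tested. With the scaling used in the test they overlapped. Of the 5, 0 passed edgeR's test in syngeneic against naive T cells, and the unadjusted test at 0.05, DESeq2 and limma-voom gave 0 too. Their log2 fold changes were 0.11 to 0.28 with a median of 0.21, against a median of 0.41 over the 31 constitutive 26S subunits, and the difference between these medians was not tested. Psme2 passed there without syngeneic library 2 (0.40, adjusted p = 0.0342 in edgeR).

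**Figure D3:**
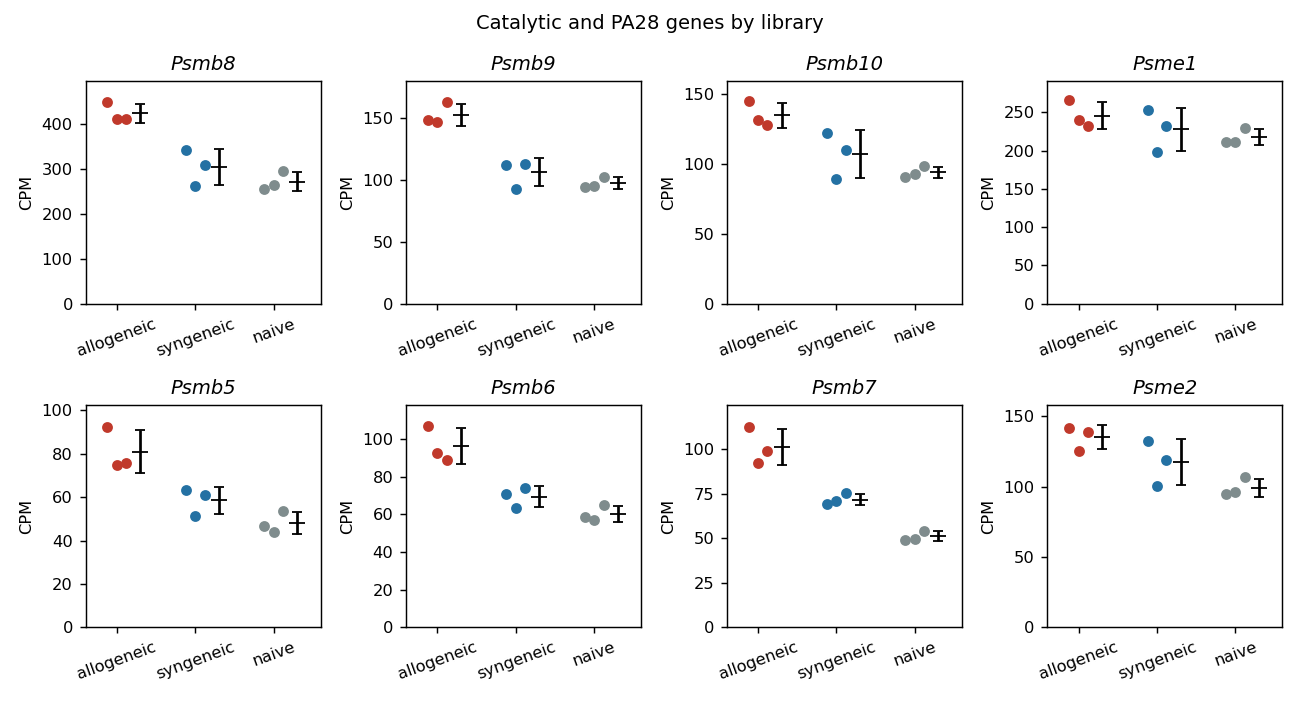
CPM of the immunoproteasome catalytic genes Psmb8, Psmb9 and Psmb10 (top) above their constitutive counterparts Psmb5, Psmb6 and Psmb7 (bottom), with the PA28 genes Psme1 and Psme2 at the right. Each dot is a library and the bar beside it is the mean ± SD of 3 libraries: allogeneic dots lie above all others in the 6 catalytic genes, most narrowly in Psmb10, where the lowest allogeneic value is 128 CPM and the highest syngeneic value 122 CPM. With the scaling used in the test, the allogeneic and syngeneic libraries of Psmb10 overlap.

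Promoters of these genes are shown because the inducible and the constitutive catalytic genes are known to answer to different factors, IRF1 downstream of interferon and NFE2L1 when proteasome activity is low. RefSeq promoter windows (GRCm38.p6, 250 bases before to 50 after a start) were matched by symbol for 40 of the 48 genes and searched on both strands for the core of the interferon-stimulated response element (GAAA, 2 bases of any kind and GAAA), TTCNNNGAA (the gamma-activated site) and TGACNNNGC (the antioxidant response element, which NFE2L1 binds). None of these motifs contains another. The printed stretches are upstream bases that lie in no exon of GENCODE M21, in the direction of the gene, with motif matches in capitals.
Psmb5, chr14:54618023-54618245, minus strand: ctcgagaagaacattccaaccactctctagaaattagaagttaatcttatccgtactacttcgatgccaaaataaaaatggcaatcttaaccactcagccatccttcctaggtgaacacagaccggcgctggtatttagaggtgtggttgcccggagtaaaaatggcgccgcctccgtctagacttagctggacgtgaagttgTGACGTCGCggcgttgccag
Psmb6, chr11:70525107-70525356, plus strand: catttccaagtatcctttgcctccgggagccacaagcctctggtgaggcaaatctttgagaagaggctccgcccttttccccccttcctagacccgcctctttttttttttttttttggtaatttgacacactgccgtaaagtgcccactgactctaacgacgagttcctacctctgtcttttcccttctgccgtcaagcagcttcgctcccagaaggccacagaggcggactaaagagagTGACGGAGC
Psmb10, chr8:105938445-105938642, minus strand: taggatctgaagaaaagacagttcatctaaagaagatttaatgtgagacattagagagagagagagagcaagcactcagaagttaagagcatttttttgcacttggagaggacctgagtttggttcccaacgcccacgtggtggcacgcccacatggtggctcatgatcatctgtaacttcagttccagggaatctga
The antioxidant response element match starts 47 bases upstream of the RefSeq start of Psmb5 and 9 bases upstream of that of Psmb6. Psmb7 had no window. The windows of Psmb9, Psmb10 and Psme2 held no match of the 3 motifs. Of the 5 inducible genes, 1 held a match of the interferon-stimulated response element and 1 held a match of the gamma-activated site. The gamma-activated site match of Psmb8 and the interferon-stimulated response element matches of Psme1, Psmb3 and Psmd4 are printed with 10 bases on each side.
Psmb8, chr17:34198088-34198116, plus strand: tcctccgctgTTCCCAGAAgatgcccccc
Psme1, chr14:55578493-55578522, plus strand: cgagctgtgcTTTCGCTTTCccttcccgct
Psmb3, chr11:97703261-97703290, plus strand: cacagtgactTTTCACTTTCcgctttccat
Psmd4, chr3:95042675-95042704, minus strand: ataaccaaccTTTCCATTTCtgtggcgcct
The match of Psmb8 lies 97 bases upstream of its RefSeq start, inside an exon of another annotated transcript of Psmb8, and that of Psme1 begins 9 bases after its start. The interferon-stimulated response element was matched in 5 of 40 proteasome promoters (12.5%; Psmb3, Psmd4, Psmd9, Psme1 and Psmg4), against 3.99% of all 27025 genes with a window of the same length. The gamma-activated site was matched in 3 of 40 (7.5%; Psmb8, Psmd2 and Psmg1), against 9.55% of all genes. The antioxidant response element was matched in 6 of 40 (15%; Psmb5, Psmb6, Psmc6, Psmd9, Psmd12 and Psme4), against 14% of all genes. A match is a run of letters and not a measured binding site.

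The ratio of each immunoproteasome gene to the constitutive gene of the same position was read within a library, so that it did not depend on scaling. Psmb8 held 4.84 to 5.46 counts for each Psmb5 count in allogeneic libraries, 5.06 to 5.39 in syngeneic libraries and 5.46 to 6.02 in naive libraries. Psmb9 held 1.39 to 1.84 counts for each Psmb6 count in allogeneic libraries, 1.47 to 1.58 in syngeneic libraries and 1.58 to 1.67 in naive libraries. Psmb10 held 1.29 to 1.42 counts for each Psmb7 count in allogeneic libraries, 1.25 to 1.77 in syngeneic libraries and 1.81 to 1.87 in naive libraries. The beta2i pair thus had lower ratios in every transplant library than in any naive library. Exons of Nek6 on the opposite strand overlap 11.8% of the exon length of Psmb7. On the log2 scale the beta2i pair had mean ratios of 0.41 ± 0.08, 0.57 ± 0.25 and 0.88 ± 0.02 in allogeneic, syngeneic and naive libraries (SD, n = 3 each). The difference was -0.47 for allogeneic minus naive and -0.31 for syngeneic minus naive. The beta5i pair had mean log2 ratios of 2.39 ± 0.10, 2.37 ± 0.05 and 2.50 ± 0.08 in allogeneic, syngeneic and naive libraries. Its syngeneic and naive libraries did not overlap, with a difference of -0.13, while allogeneic and naive libraries did, with a difference of -0.11. The beta1i pair, at 0.67 ± 0.20, 0.61 ± 0.05 and 0.70 ± 0.04, overlapped between all groups. Between allogeneic and syngeneic libraries the ratios of all 3 pairs overlapped, with differences of 0.02 for beta5i, 0.06 for beta1i and -0.15 for beta2i.

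Counts divided by the length of the principal transcript set the pairs on a scale of transcripts. On that scale Psmb8 made up 72.8 to 75.1% of the sum of Psmb8 and Psmb5 in allogeneic libraries, 73.7 to 74.9% in syngeneic libraries and 75.1 to 76.9% in naive libraries. Psmb9 made up 45.1 to 52.1% of its pair with Psmb6 in allogeneic libraries, 46.5 to 48.3% in syngeneic libraries and 48.2 to 49.7% in naive libraries. Psmb10 made up 53.2 to 55.7% of its pair with Psmb7 in allogeneic libraries, 52.6 to 61.1% in syngeneic libraries and 61.6 to 62.4% in naive libraries. These shares depend on the length used. With the length of all annotated exons the naive shares were 59.2 to 61.6% for Psmb8, 44.7 to 46.1% for Psmb9 and 78.4 to 79.0% for Psmb10, so that Psmb10 and not Psmb8 had the highest share. Per kilobase, mean levels of the 31 constitutive 26S genes ran from 17.1 to 153 CPM (median 72.7) in allogeneic libraries, from 15.3 to 121 CPM (median 59.0) in syngeneic libraries and from 12.4 to 97.4 CPM (median 43.7) in naive libraries, with Psma3 lowest and Psma7 highest in each group. In naive libraries Psme1, at 196 CPM per kilobase, Psmb8, at 167, and Psme2, at 103, stood above all 31. With the length of all annotated exons Psma6 was the highest of the 31, at 59.1 CPM per kilobase in naive libraries, with Psme1 (98.6) and Psmb8 (80.2) above it and Psme2 (56.3) below it.

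**Figure D4:**
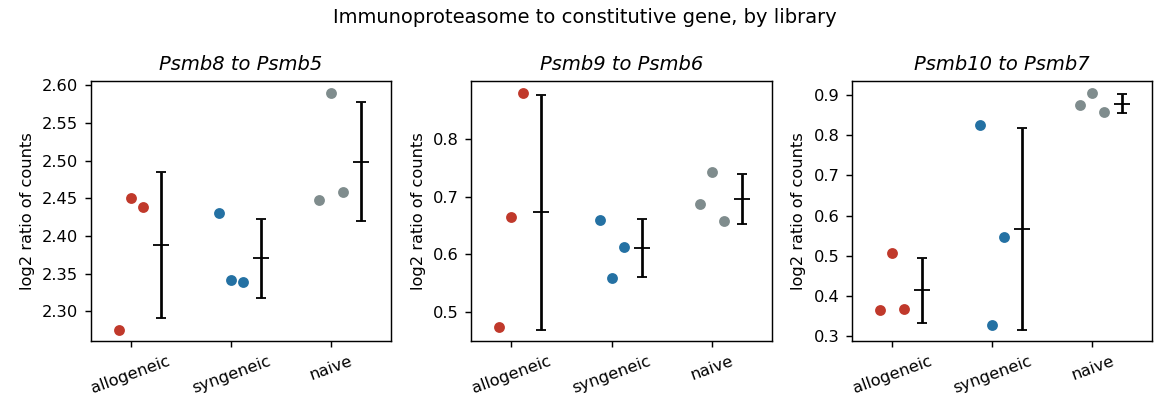
The log2 ratio of counts of Psmb8 to Psmb5, Psmb9 to Psmb6 and Psmb10 to Psmb7 in each library, with mean ± SD of 3 libraries beside the dots. In the right panel all 6 transplant libraries, with means of 0.41 in the allogeneic and 0.57 in the syngeneic group, lie below the naive libraries with a mean of 0.88; the axes do not start at 0.

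The ATPases at the base of the 19S cap unfold substrates and open the gate of the core, and 5 of their 6 genes were higher in allogeneic than in syngeneic T cells. They summed to 635 ± 51.6 CPM in allogeneic libraries, 491 ± 22.7 CPM in syngeneic libraries and 391 ± 22.8 CPM in naive libraries (SD, n = 3 each). Psmc1 (Rpt2) had 120.2, 109.7 and 112 CPM in allogeneic libraries, 72.2, 73.3 and 80.1 CPM in syngeneic libraries and 55.2, 52.5 and 61.4 CPM in naive libraries. Its groups did not overlap, and the log2 fold changes were 0.62 ± 0.10 in allogeneic against syngeneic T cells (adjusted p = 0.00061 in edgeR), 1.07 ± 0.11 in allogeneic against naive T cells and 0.45 ± 0.10 in syngeneic against naive T cells. Psmc4 (Rpt3) had the smallest called difference between the transplants, at 0.34 ± 0.11 (adjusted p = 0.0233 in edgeR), and lost it without allogeneic library 1 (0.0761), syngeneic library 2 (0.109) or syngeneic library 3 (0.0598). Psmc6 (Rpt4) differed from the others, with 59.1, 49.8 and 51.6 CPM in allogeneic libraries, 47.2, 56.4 and 50.2 CPM in syngeneic libraries and 33.5, 34.5 and 37.0 CPM in naive libraries. Its transplant libraries overlapped and all lay above the naive ones. Psmc6 had the smallest log2 fold change of the ring between the transplants, 0.09 ± 0.11 (adjusted p = 0.554 in edgeR), and the largest in syngeneic against naive T cells, 0.59 ± 0.11 (0.00171). Psmc2 (Rpt1), the smallest called value of the ring in syngeneic against naive T cells at 0.31 ± 0.11 (adjusted p = 0.0354 in edgeR), lost the call when any 1 of the 3 syngeneic libraries, allogeneic library 3, naive library 1 or naive library 2 was left out, up to an adjusted p of 0.120 without naive library 1. Psmc3 (Rpt5) and Psmc4 did not pass there, at 0.31 ± 0.13 (0.0691) and 0.28 ± 0.11 (0.0562), and both passed without allogeneic library 1 (adjusted p = 0.0133 and 0.0249 in edgeR).

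The scaffold and lid of the 19S cap, with ubiquitin receptors and the deubiquitinase Psmd14, held the largest difference between the transplants, that of Psmd8. Of 11 genes, 7 were higher in allogeneic than in syngeneic T cells, 11 were higher than in naive T cells, and 9 were higher in syngeneic than in naive T cells. Psmd8 (Rpn12), a lid subunit, had 204, 179 and 170.2 CPM in allogeneic libraries, 107.9, 101.0 and 107.7 CPM in syngeneic libraries and 90.3, 88.3 and 100.2 CPM in naive libraries. Its log2 fold changes were 0.83 ± 0.12 in allogeneic against syngeneic T cells (adjusted p = 0.000248 in edgeR), 1.05 ± 0.12 in allogeneic against naive T cells and 0.22 ± 0.12 in syngeneic against naive T cells, where it did not pass the test (0.170). Psmd13 (Rpn9), also of the lid, had 128, 118 and 111 CPM in allogeneic libraries, 68.3, 70.0 and 75.2 CPM in syngeneic libraries and 51.7, 49.7 and 54.6 CPM in naive libraries. Its groups did not overlap, and its 1.25 ± 0.11 in allogeneic against naive T cells (adjusted p = 1.63e-06 in edgeR) was the largest log2 fold change of the 31 constitutive subunits in any comparison. Exons of Sirt3 on the opposite strand overlap 10.1% of the exon length of Psmd13.

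Psmd4 (Rpn10), a ubiquitin receptor, had 124, 117 and 113 CPM in allogeneic libraries, 87.4, 86.6 and 92.0 CPM in syngeneic libraries and 93.1, 92.8 and 102 CPM in naive libraries. In CPM it was the single constitutive 26S gene with every syngeneic library below every naive library. These groups did not overlap in 56.5% of all genes tested. With the scaling used in the test, the syngeneic and naive libraries of Psmd4 overlapped. The log2 fold change was -0.08 ± 0.10 and did not pass the test (adjusted p = 0.579 in edgeR). Psmd4 was higher in allogeneic than in syngeneic T cells by 0.44 ± 0.10 (adjusted p = 0.00404) and higher than in naive T cells by 0.36 ± 0.10 (0.00833), the smallest difference from naive T cells among the 31. Psmd1 (Rpn2), a large scaffold subunit, had 129.7, 109.5 and 119 CPM in allogeneic libraries, 87.6, 102 and 102 CPM in syngeneic libraries and 58.5, 60.6 and 65.4 CPM in naive libraries. Its syngeneic against naive log2 fold change of 0.70 ± 0.11 was the largest of the class in that comparison. Psmd11 (Rpn6), which holds lid and core together, had the smallest called values of the class, 0.29 ± 0.07 in allogeneic against syngeneic T cells (adjusted p = 0.00746 in edgeR) and 0.35 ± 0.07 in syngeneic against naive T cells (0.0025). Psmd3, Psmd6, Psmd7 and Psmd12 did not pass the test between the transplants, at 0.17 to 0.27 on the log2 scale. None of them had overlapping groups in CPM, as in 52.7% of all genes tested. With the scaling used in the test, the groups of Psmd7 and Psmd12 overlapped. Psmd3 passed without syngeneic library 1 (adjusted p = 0.0438 in edgeR), and Psmd6 (0.0405) and Psmd12 (0.0330) passed without allogeneic library 2.

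Psme3, Psme4 and Psmf1 are the remaining activators and the inhibitor, and they differed from each other in their patterns. Psme3, which forms the nuclear PA28 gamma cap, had 155, 162 and 175 CPM in allogeneic libraries, 194, 233 and 233 CPM in syngeneic libraries and 118, 112 and 126 CPM in naive libraries. The groups did not overlap, with the syngeneic libraries highest. Psme3 was the single proteasome gene called lower in allogeneic than in syngeneic T cells, at -0.41 ± 0.08 on the log2 scale (adjusted p = 0.00224 in edgeR), and it was higher than in naive T cells in both transplants, by 0.52 ± 0.08 in allogeneic (0.000267) and 0.93 ± 0.08 in syngeneic T cells (6.98e-06). The erythroid markers were also highest in syngeneic libraries, at 2111, 5309 and 4553 CPM. Their lowest syngeneic value was in syngeneic library 1, where Psme3 was lowest in its group. This library also had the lowest syngeneic sums of macrophage and monocyte, neutrophil and proliferation markers, at 46.8, 306.4 and 2210 CPM. The part of all these markers in the result was not tested. Psme3 was called in the same direction in all 3 comparisons under each of the 18 alternatives. Psme4, the PA200 cap known from histone degradation, had 91.3, 100.5 and 93.7 CPM in allogeneic libraries, 66.8, 92.2 and 81.0 CPM in syngeneic libraries and 63.8, 66.2 and 60.5 CPM in naive libraries. Its 0.27 ± 0.09 in allogeneic against syngeneic T cells (adjusted p = 0.0294 in edgeR) came with overlapping groups. The call was lost without allogeneic library 1 (0.0663), allogeneic library 2 (0.0665), syngeneic library 1 (0.0888) or syngeneic library 3 (0.0813). It was also lost with library totals alone, with a minimum of 1 CPM in 3 libraries and with the 2 groups alone. Psme4 was higher than in naive T cells by 0.64 ± 0.09 in allogeneic and 0.37 ± 0.09 in syngeneic T cells. Psmf1, whose PI31 protein inhibits the core in vitro, passed no test, with 56.5, 57.2 and 56.7 CPM in allogeneic libraries, 47.9, 66.1 and 66.8 CPM in syngeneic libraries and 53.2, 55.4 and 49.6 CPM in naive libraries. In syngeneic against naive T cells it passed without syngeneic library 1 (0.33, adjusted p = 0.0106 in edgeR).

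**Figure D5:**
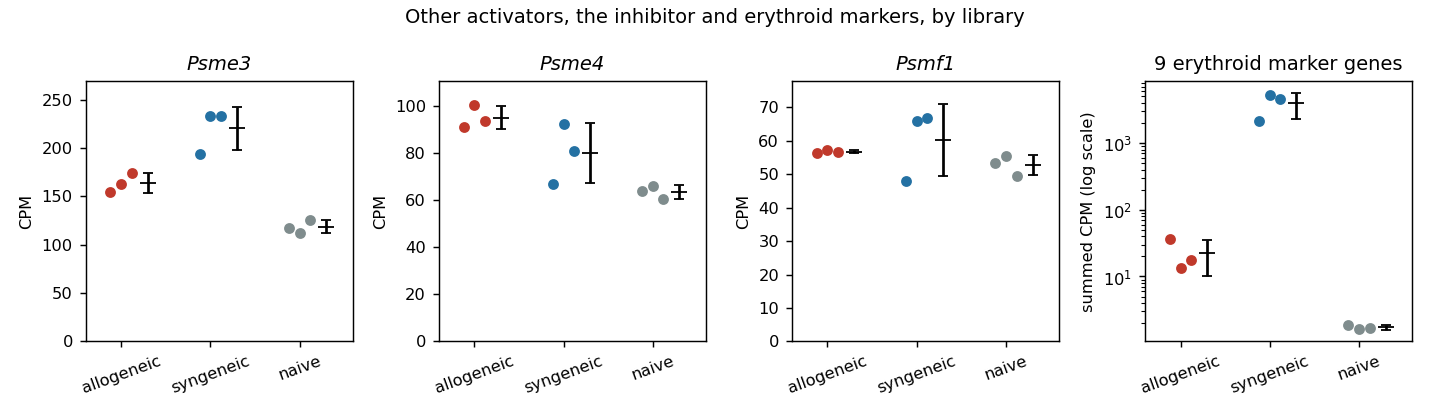
CPM of Psme3, Psme4 and Psmf1 and, at the right on a log axis, the summed CPM of 9 erythroid markers, by group. Each dot is a library and the bar beside it is the mean ± SD of 3 libraries: Psme3 and the erythroid markers are highest in the syngeneic libraries, at 194 to 233 CPM for Psme3 and 2111 to 5309 CPM for the markers.

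The assembly chaperones, which bind core or base subunits during building and leave the finished particle, were called between the transplants in 1 of 7 genes. They summed to 130 ± 12.4 CPM in allogeneic libraries, 130 ± 9.27 CPM in syngeneic libraries and 118 ± 3.50 CPM in naive libraries (SD, n = 3 each). Psmd10 (gankyrin), a chaperone of the base, was that gene, with 21.7, 18.8 and 19.7 CPM in allogeneic libraries, 12.8, 13.7 and 15.2 CPM in syngeneic libraries and 15.3, 14.4 and 16.6 CPM in naive libraries. Its allogeneic libraries lay above all others, at 0.56 ± 0.12 against syngeneic T cells (adjusted p = 0.00386 in edgeR) and 0.44 ± 0.12 against naive T cells (0.0108). Psmd9 (p27), another chaperone of the base, was higher than in naive T cells in both transplants, by 0.59 ± 0.14 in allogeneic (adjusted p = 0.00412 in edgeR) and 0.44 ± 0.14 in syngeneic T cells (0.0270), and the syngeneic call was lost when any 1 of the 3 naive libraries or of syngeneic libraries 2 and 3 was left out. Exons of Gm26745 on the opposite strand overlap 25.5% of the exon length of Psmd9. Psmd5 (S5b), also a chaperone of the base, had 40.5, 33.7 and 37.0 CPM in allogeneic libraries, 38.4, 46.2 and 44.6 CPM in syngeneic libraries and 41.8, 40.4 and 42.3 CPM in naive libraries, and passed no test. Without allogeneic library 1, Psmd5 passed at -0.32 against syngeneic T cells (adjusted p = 0.0111 in edgeR) and -0.24 against naive T cells (0.0337), and Psmg1 passed at -0.47 against syngeneic T cells (0.0126). Psmg1, Psmg2, Psmg3 and Psmg4, the chaperones PAC1 to PAC4 of the core, had 5.53 to 17.7 CPM in every library. Among them 1 call was made, for Psmg2 in syngeneic against naive T cells (0.33 ± 0.12, adjusted p = 0.0375 in edgeR), and it was lost when any 1 of the 3 syngeneic libraries, allogeneic library 3, naive library 1 or naive library 2 was left out. Psmg3 passed without allogeneic library 2 against syngeneic (adjusted p = 0.0341) and against naive T cells (0.0246), and Psmg2 against naive T cells (0.0388).

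The 2 core genes known from single tissues were at the bottom of the range. Psma8, the alpha subunit of the testis, had 28, 1 and 7 counts in allogeneic libraries, 13, 10 and 7 counts in syngeneic libraries and 1, 0 and 1 counts in naive libraries. It was called higher than naive in both transplants by edgeR, with adjusted p-values of 0.0183 in allogeneic and 0.0369 in syngeneic T cells, on these few counts. The allogeneic call was lost without allogeneic library 1 (0.136), which held 28 of the counts, or naive library 2 (0.0609), and the syngeneic call without any 1 of its 6 libraries. In limma-voom the allogeneic call was not made either. Psmb11, the beta5 subunit of the thymic cortex, had 84, 183 and 106 counts in allogeneic libraries, 128, 203 and 126 counts in syngeneic libraries and 179, 248 and 131 counts in naive libraries, and passed no test. In allogeneic against naive T cells it stood at -0.69 ± 0.30 (adjusted p = 0.0700 in edgeR) and passed without naive library 3 (0.0462) or syngeneic library 2 (0.0484).

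Of 17 proteasome-associated factors outside the set, 16 were matched, and 4 were higher and 2 lower in allogeneic than in syngeneic T cells (median log2 fold change 0.09). Against naive T cells 10 were higher and 2 lower in allogeneic T cells (median 0.39), and 10 were higher and 1 lower in syngeneic T cells (median 0.32). Over the 19609 genes, a rise was called in 24.3% and a fall in 20.7% between the transplants. With naive T cells as the reference, these shares were 31.8% and 25.9% for the allogeneic group. For the syngeneic group they were 22.4% and 19.5%. Pomp, the maturation factor of the core, had 132, 119.9 and 121 CPM in allogeneic libraries, 83.2, 73.8 and 79.7 CPM in syngeneic libraries and 60.0, 62.1 and 65.7 CPM in naive libraries. It was the largest called rise of the list in both allogeneic comparisons, at 0.67 ± 0.11 against syngeneic T cells (adjusted p = 0.000458 in edgeR) and 1.05 ± 0.11 against naive T cells. Uchl5, a deubiquitinase of the cap, was the largest rise in syngeneic against naive T cells (0.98 ± 0.12), and Ubqln2, a shuttle that carries ubiquitin-marked proteins to the cap, the largest fall against naive T cells, at -0.61 ± 0.11 in allogeneic and -0.48 ± 0.11 in syngeneic T cells.

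Of 8 genes that control proteasome or class I genes, 2 were higher and 2 lower in allogeneic than in syngeneic T cells (median log2 fold change -0.21). Among all genes tested, 24.3% were called higher and 20.7% lower in this comparison. Irf1, an interferon-induced factor known to act on Psmb9 and Tap1, passed no test, at -0.23 ± 0.11 in allogeneic against syngeneic T cells (adjusted p = 0.103) and -0.24 ± 0.11 against naive T cells (0.0747). Nfe2l1, the factor of the constitutive genes, stood at 0.17 ± 0.08 in allogeneic against syngeneic T cells (adjusted p = 0.0887 in edgeR) and at -0.14 ± 0.08 against naive T cells (0.141), and was lower in syngeneic than in naive T cells, at -0.32 ± 0.08 (0.00696). Ngly1, which processes the NFE2L1 protein, had the largest called rise of the list between the transplants, at 0.56 ± 0.10, and Nfe2l2, the oxidative stress factor, the largest fall, at -0.74 ± 0.08. Against naive T cells 2 of the 8 were higher and 2 lower in allogeneic T cells (median -0.16) and 2 higher and 1 lower in syngeneic T cells (median -0.04). The shares over all genes tested were 31.8% higher and 25.9% lower in the allogeneic and 22.4% higher and 19.5% lower in the syngeneic comparison. Irf8 had the largest rise in both, 2.68 ± 0.18 in allogeneic and 2.16 ± 0.17 in syngeneic T cells, and is also a gene of macrophages, dendritic cells and B cells. Of 6 markers each of macrophages, dendritic cells and B cells, in this order, 5, 2 and 4 were called higher in allogeneic and 6, 5 and 4 in syngeneic than in naive T cells, with 0 lower, and their part in this result was not tested.

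Of 8 genes for loading peptides on class I molecules, 4 were higher and 0 lower in allogeneic than in syngeneic T cells (median log2 fold change 0.34). Among all genes tested, 24.3% were called higher and 20.7% lower between the transplants. Tap1, a subunit of the peptide transporter and the neighbour of Psmb9, had 463, 528 and 494 CPM in allogeneic libraries, 327, 281 and 321 CPM in syngeneic libraries and 336, 333 and 352 CPM in naive libraries. Its allogeneic libraries lay above the 6 others, at 0.69 ± 0.10 against syngeneic T cells (adjusted p = 0.000227 in edgeR) and 0.59 ± 0.10 against naive T cells (0.000377). In allogeneic against naive T cells 6 of the 8 were higher and 0 lower (median 0.46), led by Pdia3, a folding enzyme of the loading complex, at 0.93 ± 0.11. In syngeneic against naive T cells 3 were higher and 0 lower (median 0.08), led by Canx, a folding chaperone, at 0.53 ± 0.10.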

How the data were processed

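Stranded total RNA libraries were made from 100 ng of RNA of sorted splenic T cells after ribosomal RNA depletion, per the labels' protocols. The values deposited by the authors are raw counts of reads for each Ensembl gene, in a table of all libraries. Per the submitters' processing notes, GRCm38 was the build, and the tools were HTSeq 0.6.1, Bowtie2 2.2.1, TopHat2 2.0.13 and FastQC 0.11.3. Not given in the sources used here are the strand setting, the annotation release and how multiply aligned reads were treated, so that reads of overlapping genes may be mixed.

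Symbols, coordinates and exons came from GENCODE M21, which matched 29014 of 29229 identifiers, and 541 genes had no count. CPM values are counts divided by the column total. Whether groups overlapped in a gene was read on these values, without the TMM scaling of the test (factors of 0.904 to 1.05). The 19609 genes kept by filterByExpr entered edgeR's quasi-likelihood test (version 4.0.16, R 4.3.3) with TMM scaling, all 9 libraries in 1 model with group as the term, and Benjamini-Hochberg adjustment over all genes tested. The SE of a log2 fold change is its absolute value over the root of the F statistic. The common biological coefficient of variation was 0.193. DESeq2 1.42.0 and limma-voom (limma 3.58.1) were alternatives, beside other scalings, filters, a replicate term, 2-group fits and each library left out, 18 in all. The edgeR script was also run on simulated data with 200 changed genes, and the outcome is not given here. Replicates differed by more than sampling noise (chi-square per degree of freedom 22.5 to 362).

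The proteasome genes and the lists beside them were chosen with earlier results of these data known. The 5 inducible and 3 constitutive catalytic genes were named in every comparison, and per class the called genes with the largest and smallest log2 fold change, those called against their class, and those not called; of other lists, the largest called change in each direction and Nfe2l1, Pomp and Irf1. Some genes that this rule names are not reported here. Other genes listed for a call that was lost or gained, for a 2-fold rise or for their level per length were named after their values were seen. Library pools, not single mice, give the spread of the transplant groups, and for naive libraries the sources used here do not say whether mice were pooled. A comparison of subunit proteins was planned and was not made.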

Additional observations from a re-analysis of the deposited data

How the results depend on the processing

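Depth was 103953932 counts or more per library and limited only Psma8 and Psmb11. Most calls against naive cells in the allogeneic group held under the alternatives, while those between the transplants and those of the syngeneic group rested more on single libraries. Leaving out 1 library moved the count called higher over 19 to 31 in allogeneic against syngeneic cells, 39 to 42 in allogeneic against naive cells and 17 to 29 in syngeneic against naive cells, and the count called lower over 1 to 3, 0 to 1 and 0 to 0. Other settings gave 24 to 30, 39 to 40 and 23 to 28 higher. The labels do not say that a replicate number is shared between groups, so the numbers were not taken to pair samples. Deviations of same-numbered libraries of different groups had correlations of -0.118 to 0.265. Those of libraries with different numbers had correlations of -0.252 to 0.185. With the replicate block the counts were 30, 40 and 27 higher, and 1 gene was called lower in allogeneic against naive cells, against 0 without the block.

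Leaving out 1 library moved the difference in log2 ratio over -0.01 to 0.07, -0.14 to -0.05 and -0.16 to -0.08 for Psmb8 to Psmb5, over -0.04 to 0.16, -0.13 to 0.08 and -0.11 to -0.06 for Psmb9 to Psmb6, and over -0.27 to -0.02, -0.51 to -0.44 and -0.44 to -0.19 for Psmb10 to Psmb7, in the order of the comparisons above.

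Log2 fold changes turned sign only for genes that did not pass the test, and the cause was not tested. With 1 library left out, in allogeneic against syngeneic cells the value ranged over -0.054 to 0.17 for Psmc6, -0.16 to 0.0026 for Psmf1, -0.030 to 0.26 for Psmd9, -0.15 to 0.0017 for Psmg2, -0.080 to 0.19 for Psmg4 and -1.45 to 0.91 for Psma8. The ranges were -0.19 to 0.16 for Psmg1 and -0.069 to 0.18 for Psmg4 in allogeneic against naive cells, and -0.026 to 0.21 for Psme1, -0.066 to 0.068 for Psmg3, -0.092 to 0.11 for Psmg4 and -0.47 to 0.14 for Psmb11 in syngeneic against naive cells. Psma8 stood at -0.23 between the transplants with the replicate block and at -1.01 in limma-voom. Psmg1 stood in allogeneic against naive cells at -0.040 with library totals alone, -0.0054 without Gm26917 and Gm42418, -0.020 with a minimum of 1 CPM and -0.019 in limma-voom. In syngeneic against naive cells, Psmg3 and Psmg4 stood at -0.032 and -0.030 with library totals alone, -0.0094 and -0.0015 without Gm26917 and Gm42418, -0.015 and -0.0058 with no filter, -0.0016 and -0.0034 with the replicate block, and -0.019 and -0.012 with the 2 groups alone.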
